A study of Homo sapiens with 10 samples.

Results

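Metallothioneins are small cysteine-rich proteins that bind zinc, copper and cadmium, and that can also take up platinum drugs such as cisplatin. In human cells MT2A and the MT1 genes form a cluster on chromosome 16 and are switched on by zinc and other metals through MTF1, a zinc-sensing transcription factor. MTF1 acts at short DNA elements called metal response elements, and SLC30A1, which encodes the zinc exporter ZnT1 of the plasma membrane, is another of its known targets. The 8 genes described here are the ubiquitous metallothionein MT2A, the inducible MT1E, MT1F, MT1G, MT1M and MT1X, the sensor MTF1 and the exporter SLC30A1. They were listed by name and matched by symbol to the Ensembl identifiers of the expression tables, where all 8 of 8 were found among 58037 genes.

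The libraries came from A549, a human lung adenocarcinoma cell line, and from A549/DDP, a line described in the labels as resistant to DDP (cisplatin). Both lines were grown in the same serum-containing RPMI medium with antibiotics, and the labels name no drug or metal in it. The comparison is therefore one of 2 lines, with no treatment named for either. Whether A549/DDP had been kept in cisplatin or recently exposed to it is not said in the sources used here. According to the methods of the study A549 was purchased and A549/DDP was a gift from another laboratory, and the sources used here do not say that these A549 cells are its parent. The main comparison used 2 input libraries of RNA that was not pulled down for each line, and a further pair of A549 inputs entered only as an alternative. Each line also had 2 libraries from m6A-seq, in which RNA fragments carrying N6-methyladenosine were captured with an antibody. The label of the A549/DDP inputs gives the cell line as A549 and the cell type as DDP resistant, and their title names A549 DDP. The labels do not say whether replicates were separate cultures, so p-values measure only the spread between these libraries, which may be technical. The resistant group is 1 line, so what goes with resistance and what goes with that line cannot be told apart.

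The 4 inputs held between 29225501 and 35286514 expected counts, which are the read counts that RSEM assigns to each gene. Of 5 epithelial markers, 4 were at 1 TPM or more in all 4 inputs, and their summed level was 3684 to 7921 TPM in A549 and 14736 to 14741 TPM in A549/DDP. KRT8 and KRT18 set that sum, while KRT19 was at 33.3 and 64.0 TPM in A549 and at 9.24 and 0 TPM in A549/DDP. TPM is a level scaled by library size and corrected for transcript length. Of the 5 lung lineage and alveolar markers 4 were below 1 TPM in all 4 inputs, with sums of 0 to 1.51 TPM in A549 and 2.16 to 4.49 TPM in A549/DDP. Both endothelial markers were below 1 TPM throughout, with a sum of at most 0.21 TPM. Of 3 leukocyte markers PTPRC and CD3E were also below 1 TPM throughout, and CD68 set the sum of 154 to 156 TPM in A549 and 128 to 141 TPM in A549/DDP. Of 3 fibroblast markers 1, COL1A1, was at 1 TPM or more in all 4, and the sum was 5.20 to 8.81 TPM in A549 and 3.02 to 19.9 TPM in A549/DDP. The part of these differences in the results was not tested. CDKN2A, which is deleted in A549, lay between 0 and 1.03 TPM.

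The sequences upstream of MT2A, MT1X and SLC30A1 are shown because they hold the letters through which the family is known to respond to metal. The core of the metal response element was searched as TGCACNC or TGCGCNC on both strands, in windows from 250 bases before to 50 bases after the start of each gene in RefSeq (GRCh38.p14). Windows were at hand for 4 of the 8 members. Capitals mark the cores, read 5′ to 3′ on the strand of the gene, and the last base printed is the one before the start site. A core on the other strand appears as its reverse complement.
MT2A, chr16:56608404-56608583, plus strand: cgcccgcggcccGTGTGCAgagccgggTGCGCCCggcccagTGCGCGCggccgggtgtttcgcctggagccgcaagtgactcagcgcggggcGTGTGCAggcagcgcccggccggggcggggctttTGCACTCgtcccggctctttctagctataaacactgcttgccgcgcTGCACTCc
MT1X, chr16:56682290-56682469, plus strand: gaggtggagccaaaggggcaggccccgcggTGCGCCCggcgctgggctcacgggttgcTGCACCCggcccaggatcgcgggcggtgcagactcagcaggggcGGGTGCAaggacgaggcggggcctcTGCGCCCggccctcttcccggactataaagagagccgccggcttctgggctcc
SLC30A1, chr1:211579162-211579221, minus strand: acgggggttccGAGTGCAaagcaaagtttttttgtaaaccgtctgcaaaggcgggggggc

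The 180 bases upstream of MT2A held 6 cores, 4 of them on the gene's strand, beginning 168, 153, 139, 88, 54 and 8 bases before the start. The 180 bases upstream of MT1X held 4, beginning 150, 122, 78 and 53 bases before the start. In both genes a core on the other strand was followed by one on the gene's own strand a little more than 50 bases before the start. Over the whole windows MT2A held 8 cores, MT1X 4, SLC30A1 2 and MTF1 none. Of 35116 promoter windows of the same length 29.6% held at least 1 core, 8.6% at least 2, 0.601% at least 4 and 0.0199% at least 8. A match is a description of the letters and says nothing of whether MTF1 was bound. MT1E, MT1F, MT1G and MT1M had no window in the table.

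MT2A (ENSG00000125148.6, chr16:56608584-56609497) carried most of the metallothionein RNA in these cells. Its level was 79.8 and 61.5 TPM in the A549 inputs and 51.2 and 53.8 TPM in the A549/DDP inputs. Both A549/DDP values lay below both A549 values, and the A549 replicates were further apart than the resistant ones. The mean level was 70.7 ± 13.0 TPM (SD, n = 2) in A549 and 52.5 ± 1.83 TPM (SD, n = 2) in A549/DDP. MT2A ranked 2469 and 3259 among all genes by TPM in A549, and 3612 and 3505 in A549/DDP. It made up 85.8% and 97.1% of the summed counts of the 6 metallothioneins in A549, and 75.9% and 98.0% in A549/DDP.

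SLC30A1 (ENSG00000170385, chr1:211571568-211579161) was the next in level. Its inputs read 21.2 and 19.3 TPM in A549 and 14.3 and 16.1 TPM in A549/DDP, so the lines again did not overlap. MTF1 (ENSG00000188786, chr1:37809574-37859592) was measured at 3.48 and 4.56 TPM in A549 and at 3.55 and 3.72 TPM in A549/DDP. The MTF1 values of the resistant line lay within the range of A549. Members whose TPM was lower in both A549/DDP inputs than in both A549 inputs thus numbered 2 of the 5 that passed the filter on low counts, MT2A and SLC30A1. Of all 16406 genes that passed, 30.3% showed the same arrangement.

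**Figure D1:**
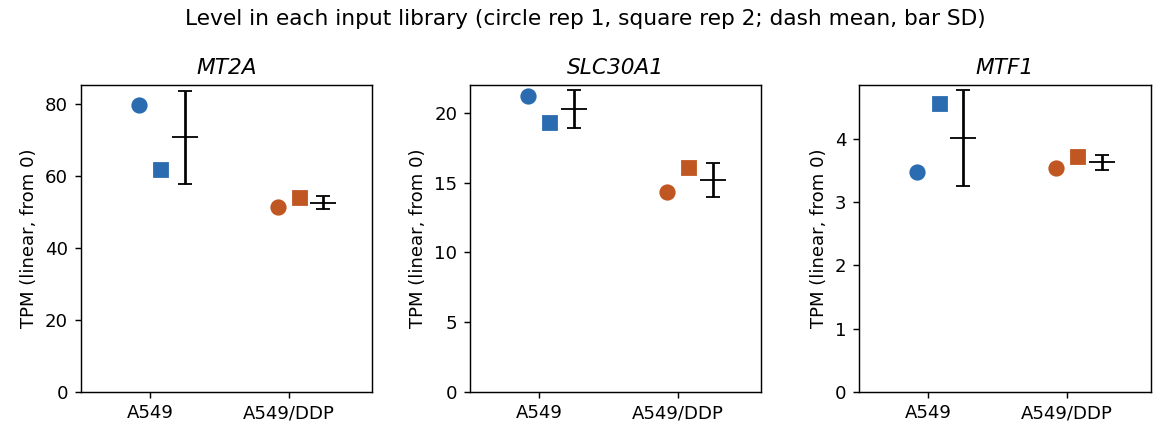
TPM (linear axes from 0) of MT2A, SLC30A1 and MTF1 in the 2 A549 and 2 A549/DDP input libraries; circles are replicate 1, squares replicate 2, dashes the mean and bars the SD. MT2A and SLC30A1 were lower in both A549/DDP inputs than in both A549 inputs, and MTF1 overlapped.

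In the order of mean TPM over the 4 inputs, MT2A (61.6) came first, then SLC30A1 (17.7), MTF1 (3.83), MT1F (2.74), MT1X (2.64), MT1G (1.76), MT1E (0.603) and MT1M (0.0725). The ranges of MT2A and SLC30A1 did not overlap, nor did those of SLC30A1 and MTF1. From MTF1 downward each gene's range overlapped that of the next, so those neighbours were not separated by their spread.

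MT1X and MT1F differed more between replicates than between lines. MT1X had 58 and 4 expected counts in A549 and 21 and 3 in A549/DDP. MT1F had 44 and 2 counts in A549 and 36 and 0 in A549/DDP. For both genes replicate 1 was high and replicate 2 low, in A549 as in A549/DDP. The zero for MT1F allows up to 3 counts in a library of that depth.

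MT1G had 6 and 4 counts in A549 and 30 and 0 in A549/DDP, so 1 resistant library held most of them. MT1E had 2 and 3 counts in A549 and 11 and 4 in A549/DDP. MT1M was at 0 in both A549 inputs and at 4 and 0 in A549/DDP. None of these 3 passed the filter on low counts, and no fold is given for them. The metallothionein genes resemble each other closely in sequence, so how RSEM divided shared reads among them makes each of the single values uncertain.

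Added together, the 5 MT1 genes held 110 and 13 counts in A549, with exact 95% Poisson intervals of 90.4 to 133 and 6.92 to 22.2. In A549/DDP they held 102 and 7 counts, with intervals of 83.2 to 124 and 2.81 to 14.4. These intervals cover counting error only. Scaled by library size, replicate 1 was 8.29-fold above replicate 2 in A549 and 16.9-fold in A549/DDP. In TMM-normalized CPM (counts scaled by library size) with 0.1 added, MT2A differed 1.66-fold between the A549 replicates and 1.10-fold between those of A549/DDP. On that same scale MT1X differed 8.75-fold and 4.35-fold, and MT1F 9.19-fold and 13.1-fold. Chosen after these values were seen, a count took genes at least 4-fold higher in replicate 1 than in replicate 2 of both lines. It gave 2 of the 5 members tested, MT1X and MT1F, and 1.86% of all 16406 genes. Both members had passed the filter on low counts only through their replicate 1 libraries. Their place among the 5 thus already depended on this pattern, and the share of members cannot be set against that of all genes. Another 167 genes were at least 4-fold higher in replicate 2 of both lines. A shared replicate number has no stated meaning in the labels, and its part in the MT1 values was not tested.

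**Figure D2:**
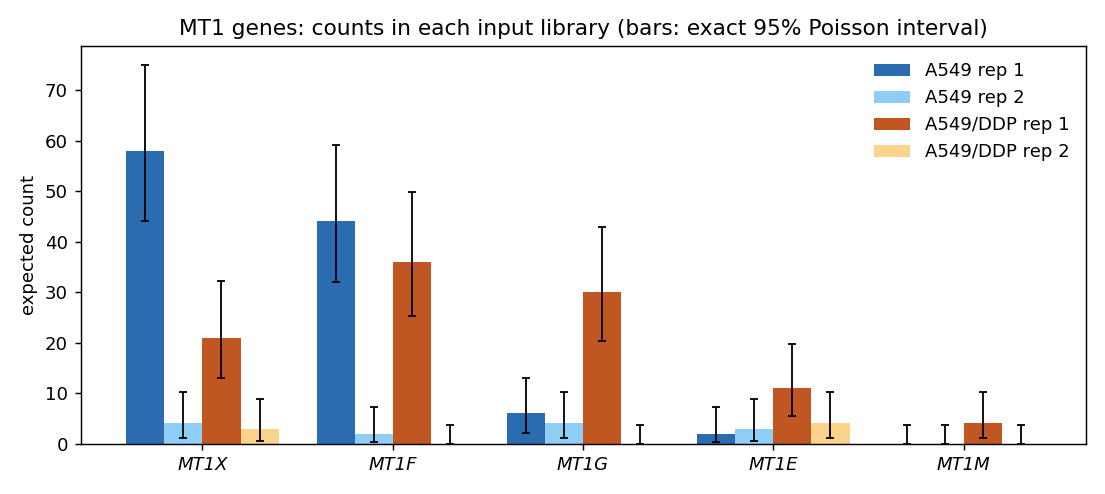
Expected counts of MT1X, MT1F, MT1G, MT1E and MT1M in each of the 4 input libraries, with exact 95% Poisson intervals. The counts of MT1X and MT1F were high in replicate 1 of both lines (21 to 58) and low in replicate 2 of both (0 to 4).

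The question put to the count data was whether the resistant line differed from A549 in the RNA of these genes. No member reached an adjusted p under 0.05, where p came from the quasi-likelihood test of edgeR and was adjusted over all genes tested by the Benjamini-Hochberg method. The 5 members tested gave 0 calls in either direction, 0 with an unadjusted p under 0.05, and 0 in DESeq2 and in limma. The background was 14.9% of 16406 genes called, with 6.85% higher and 8% lower in A549/DDP. A p that misses the threshold does not show that the levels were equal.

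MT2A had a log2 fold change of -0.65 (SE 0.44, adjusted p = 0.376, edgeR), from 16.2 ± 5.72 CPM in A549 to 10.4 ± 0.709 CPM in A549/DDP (SD, n = 2). SLC30A1 had a log2 fold change of -0.43 (SE 0.22, adjusted p = 0.239, edgeR), from 70.7 ± 11.4 to 52.6 ± 3.95 CPM. Without A549 replicate 1 the log2 fold change of MT2A was -0.25 and that of SLC30A1 -0.27, so that library set much of both. MT2A and SLC30A1 had 322 to 2591 counts in each input. MTF1 had a log2 fold change of -0.11 (SE 0.33, adjusted p = 0.876, edgeR).

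For MT1X and MT1F, as for MTF1, the standard error exceeded the change itself. MT1X gave a log2 fold change of -1.23 (SE 2.11, adjusted p = 0.762, edgeR) and MT1F one of -0.20 (SE 2.61, adjusted p = 0.972, edgeR). Without A549 replicate 1 both turned positive, to 1.77 and 3.33, and without A549/DDP replicate 2 MT1F became 0.79. Their direction therefore rested on single libraries.

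The sum of the 6 metallothioneins, which does not depend on how reads were divided among those 6, held 777 and 445 counts in A549 and 424 and 351 in A549/DDP. Reads shared with the other genes of the family can still move it, and with all 16 genes and pseudogenes of the cluster the first of these values was 831. Its log2 fold change was -0.57 (SE 0.46, adjusted p = 0.471, edgeR), close to that of MT2A. Without A549 replicate 1 it was -0.06. The sum of the 5 MT1 genes, a feature added after the data were seen, had a log2 fold change of -0.03 (SE 1.80, adjusted p = 0.995, edgeR). In bulk libraries less RNA per cell and fewer cells with the RNA cannot be told apart. With the other pair of A549 inputs in the labels in place of the first, MT2A, MT1X and SLC30A1 were called lower in A549/DDP, and MT2A had a log2 fold change of -6.64 (adjusted p = 2.6e-11, edgeR). The size of the MT2A change depended on the scale. Its TPM was 216 and 134 in that pair, against 51.2 and 53.8 in A549/DDP. The MT1X call rested on 1 and 2 counts in that pair. The direction of SLC30A1 turned with the scale, since its TPM was 3.53 and 2.70 in that pair, or 8.68 and 6.30 scaled to RNA outside mitochondrial genes, below the 14.3 and 16.1 TPM of A549/DDP. That pair held 855034 and 982036 counts, of which 75.2% and 73.9% were mitochondrial, and its labels name no experiment.

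**Figure D3:**
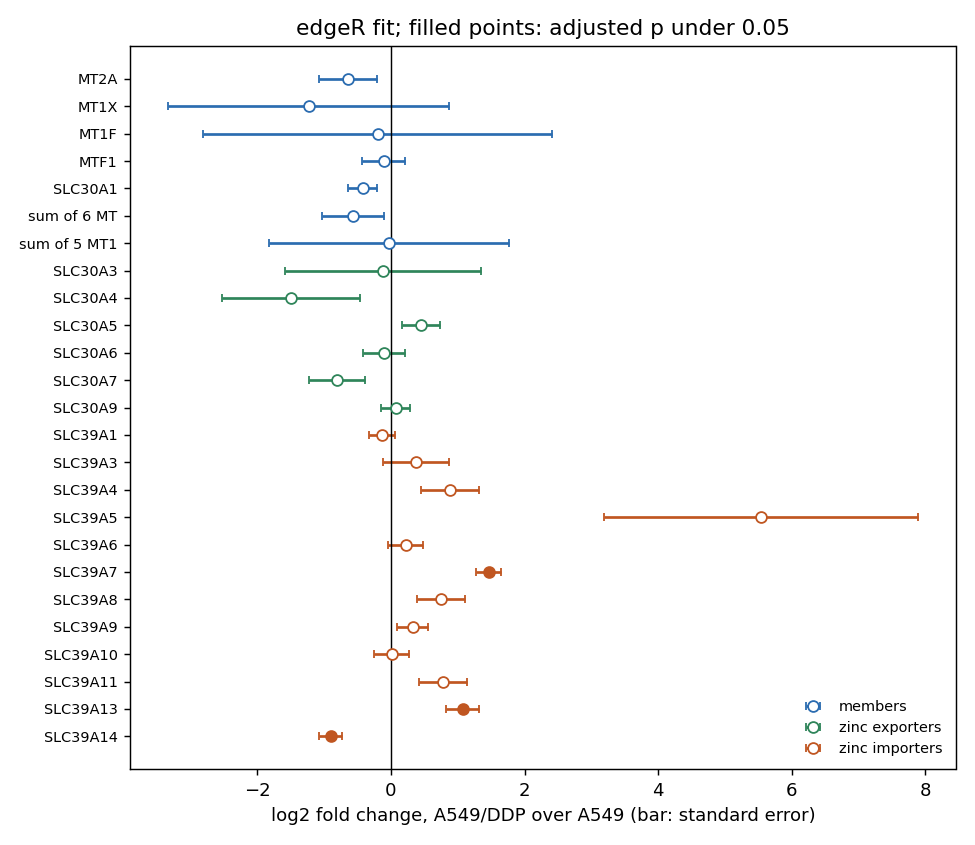
log2 fold change of A549/DDP over A549 from the edgeR fit, with standard errors, for the members tested, the metallothionein sums and the zinc transporters; filled points have an adjusted p under 0.05. The filled points are SLC39A7, SLC39A13 and SLC39A14. The bars of MT1X, MT1F, the MT1 sum, MTF1 and several zinc transporters are wider than their distance from 0.

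The other genes of the family added few counts outside A549 replicate 1. Of 10 further metallothionein genes and pseudogenes, all in the tables, none passed the filter. MT1A had 53 counts in A549 replicate 1 and none in A549 replicate 2, and 2 and 0 in A549/DDP. At 8.12 TPM in A549 replicate 1, MT1A lay above MT1X (6.29 TPM) and MT1F (5.21 TPM) in that library. The brain-enriched MT3 and the epithelial MT4 were at 0 in all 4 inputs. With all metallothionein genes and pseudogenes of chromosome 16 in the sum, the log2 fold change was -0.62 (adjusted p = 0.441, edgeR).

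Zinc transporters were taken as the wider metal-handling group. Most exporters of the SLC30 family move zinc out of the cytosol. Of the 9 besides SLC30A1 the fit tested 6 (SLC30A3, SLC30A4, SLC30A5, SLC30A6, SLC30A7 and SLC30A9). None was called by edgeR and none had an unadjusted p under 0.05, with a median log2 fold change of -0.11. SLC30A7, an exporter of the Golgi, had the smallest adjusted p, with a log2 fold change of -0.80 (SE 0.42, adjusted p = 0.248, edgeR). None was called in DESeq2 or limma either.

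The importers of the SLC39 family bring zinc into the cytosol, and 12 of 14 were tested. SLC39A7 and SLC39A13 rose, SLC39A14 fell, and 9 did not pass, so that 3 of 12 were called where 14.9% of all genes tested were. The list had a median log2 fold change of 0.57 beside 0.00 over all genes. SLC39A7, which releases zinc from the endoplasmic reticulum, measured 102 and 85.5 CPM in A549 and 276 and 241 CPM in A549/DDP. Its log2 fold change was 1.46 (SE 0.18, adjusted p = 0.0077, edgeR), and the lines were far apart compared with their replicates. SLC39A13, which acts in the early secretory pathway, had 24.99 and 24.97 CPM in A549 and 58.2 and 46.8 CPM in A549/DDP, a log2 fold change of 1.07 (SE 0.25, adjusted p = 0.0377, edgeR). SLC39A14, an importer of zinc and iron, had 259.6 and 226 CPM in A549 and 138 and 123 CPM in A549/DDP, a log2 fold change of -0.90 (SE 0.17, adjusted p = 0.0230, edgeR).

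Neither SLC39A13 nor SLC39A14 passed without A549/DDP replicate 1 (adjusted p = 0.153 and 0.0825) or without A549/DDP replicate 2 (adjusted p = 0.0532 and 0.142). SLC39A7 passed with any 1 library left out. The importers that were not called were SLC39A1, SLC39A3, SLC39A4, SLC39A5, SLC39A6, SLC39A8, SLC39A9, SLC39A10 and SLC39A11. Among them SLC39A5 had 0.0608 and 0 CPM in A549 and 2.16 and 0.975 CPM in A549/DDP, and its adjusted p was 0.165.

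The metallothionein genes and pseudogenes of the cluster, 16 in all, spanned chr16:56565073-56684196 with no other protein-coding gene inside. Of the 5 protein-coding genes nearest to each side, 8 of 10 were tested and none was called by edgeR, with 1 at an unadjusted p under 0.05. DESeq2 and limma on log2(TPM + 1) each called 1, NLRC5. Their median log2 fold change was 0.36. NLRC5, a regulator of MHC class I genes, was the one with the smallest adjusted p, with 2.10 and 2.93 CPM in A549 and 13.8 and 9.89 CPM in A549/DDP (log2 fold change 2.23, SE 0.63, adjusted p = 0.0639, edgeR). HERPUD1, an endoplasmic reticulum stress gene, had a log2 fold change of 0.57 (adjusted p = 0.156).

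The genes whose profile over the 4 inputs was most like that of MT2A were STAMBP, MRPS18A, SAT2, TSSC4 and PRMT1. Likeness was the Euclidean distance between log2 CPM profiles centred on their means, over 4 libraries. It was taken for 11347 genes whose mean reached 5 CPM, and these 5 lay at 0.0501 to 0.0876. STAMBP encodes a deubiquitinase, MRPS18A a mitochondrial ribosomal protein and PRMT1 an arginine methyltransferase. With 4 points per profile the order is a description only.

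The m6A lists ask which of these RNAs carried a called peak, a stretch enriched over the input in the antibody pull-down. The authors deposited 1 list for each library, with 26320 and 14576 peaks for A549 replicates 1 and 2 and 27244 and 10661 for A549/DDP replicates 1 and 2. The lists give no read depth, no fold and no summit, so a missing peak is not evidence of an unmodified RNA. Of the 8 members, 4 had a peak in the list of A549 replicate 1 and 2 in that of A549 replicate 2. The A549/DDP lists gave 2 members for replicate 1 and 4 for replicate 2. Counted over the 5 members that passed the filter, the numbers were 4, 2, 2 and 3. The shares of all 16406 genes that passed and had a peak were 43.7%, 30.6%, 40.7% and 22.2% in the same order. With 2 lists a line no test of the lines was made.

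MT2A and SLC30A1 had peaks in all 4 lists, as did 13.9% of expressed genes. MT2A had 3 separate peaks in every list. The peak nearest to the start began 14 bases from the annotated start in A549 replicate 1 and 64 bases from it in the other lists, and 101 bases, all from 56608648 to 56608748, were common to the 4 lists. The middle one was the same interval in all 4, chr16:56609048-56609148. The last began 713 bases from the start in 3 lists and 763 bases in A549/DDP replicate 2. It ended at the annotated end of the gene in both A549/DDP lists and 50 bases short of it in both A549 lists. Edges of the MT2A peaks differed between lists only by multiples of 50 bases, so this was the smallest step seen.

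The peaks of MT2A covered 403 bases in each of the first 3 lists and 453 bases in A549/DDP replicate 2. The transcript length that RSEM gave MT2A, weighted over its isoforms, was 476, 453, 445 and 416 bases in the inputs of the same labels. The peaks as called therefore took in most of this short mRNA or more than its weighted length, in both lines. Their deposited p-values ran from 7.8e-05 to 0.00011 in A549 replicate 1, from 3.4e-06 to 4.7e-05 in A549 replicate 2, and from 1.1e-06 to 1.4e-05 in A549/DDP replicate 1. All 3 had the value 4.9e-06 in the other list of the resistant line.

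SLC30A1 had 3 peaks in each A549 list and 2 in each A549/DDP list. In all 4 lists a peak of 2 exon blocks began 767 to 917 bases from the start, on the strand of the gene. Another began 3264 to 3463 bases from the start and covered 399 to 598 bases. The peak that only the A549 lists held began 419 or 519 bases from the start and covered 250 or 150 bases. The peaks together covered 1246 and 1297 bases in A549 and 897 and 997 bases in A549/DDP, of a transcript of 5474 bases. Their deposited p-values were 0.00027 to 0.00035 in A549 replicate 1, 2.5e-13 in A549 replicate 2, and 0.00058 to 0.0024 in the A549/DDP lists. With 2 lists a line the difference in the number of peaks was not tested.

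MTF1 had peaks in A549 replicate 1 alone, 4 of them, all with a deposited p-value of 1.5e-07 and together 1251 bases long. They began 1990, 36907, 44045 and 44643 bases from the start of this long gene. Its input counts in the 4 libraries, 594, 770, 536 and 657, all lay within 1.5 times of each other.

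MT1X had 2 peaks in A549 replicate 1 and 2 in A549/DDP replicate 2. The one near the start was the same interval in both lists, chr16:56682522-56682621, beginning 52 bases from the start. The other lay near the end of the gene and shared 51 bases between the lists. The input of A549 replicate 1 held 58 counts of MT1X and that of A549/DDP replicate 2 held 3, beside 344 of MT2A. Since the metallothionein genes resemble each other closely, which of them the reads of a peak came from is uncertain, here and for MT1E.

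MT1E had 2 peaks in A549/DDP replicate 2 alone, of 192 bases in 2 blocks and of 96 bases, where the input of the same label held 4 counts. MT1E did not pass the filter on low counts, and of 6361 genes that had a count but did not pass, 1.52% had a peak in that list. MT1F, MT1G and MT1M had no peak in any list. Which input was set against which list is not given in the sources used here, and the replicate numbers of the A549 m6A libraries are exchanged between labels and deposited names, so the pairing of a list with an input count is uncertain for A549.

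Among the zinc importers tested, 3 of 12 had a peak in all 4 lists (SLC39A1, SLC39A6 and SLC39A9) and 3 had none. Of the importers called in the count data, SLC39A7 and SLC39A14 had peaks in every list but that of A549/DDP replicate 2, and SLC39A13 had 1 peak, in A549 replicate 1. Of the 6 zinc exporters tested besides SLC30A1, SLC30A6 had a peak in all 4 lists and 3 had none. None of the 10 further metallothionein genes had a peak in any list.

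Held to a deposited p-value at or below 1e-05, the members with a peak numbered 1, 2, 1 and 1 in the order of the lists above, and none had a peak in all 4. MT2A then kept peaks in 3 lists, those of A549 replicate 2 and both A549/DDP replicates. With every list cut to its best 10661 peaks the numbers were 1, 2, 0 and 4. The number of members with a peak thus moved with the threshold and with the length of the list.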

How the data were processed

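RNA of A549 and A549/DDP cells was sequenced as inputs and as m6A-seq libraries, 10 libraries in all, and groups were taken from the labels. The submitters' processing notes name STAR, RSEM, bedtools and the build hg38, and give no versions. For each input the table deposited by the authors gives expected counts, with TPM and FPKM, per gene as RSEM writes them, with the transcript length and effective length. The deposited expected counts are not normalized. For each m6A library the authors deposited a list of peaks with exon blocks, gene and a p-value whose adjustment is not given in the sources used here. The peak caller is not given there either. Coordinates are printed counted from 1. Of 58037 gene identifiers, 56948 were matched to a symbol.

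Expected counts were rounded, passed through filterByExpr, TMM-scaled and tested across all 16406 genes left with edgeR 4.0.16 (glmQLFit, glmQLFTest) in R 4.3.3, 4 inputs, threshold 0.05. Standard errors are the log2 fold change over the square root of F. The script was tested on simulated data. Alternatives were DESeq2 1.42.0, limma 3.58.1 on log2(TPM + 1), log2(TPM + 0.1) or log2(FPKM + 1), upper-quartile scaling, other filters, the replicate block, the other A549 inputs and leaving out each library. Plots and tables used Python 3.11.15, pandas 2.3.3, scipy 1.17.1 and matplotlib 3.10.9. Depth was 29225501 to 35286514 counts per input, so that 3 counts equal 0.0850 to 0.103 CPM. The depth of the m6A libraries is unknown.

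Named genes were the 8 members, the genes of the 4 lists (other metallothioneins, zinc exporters, zinc importers, genes flanking the cluster) that pass the filter, and the 5 genes nearest to MT2A in profile. Members and lists were chosen with earlier results of these data known. The sum of the MT1 genes and the count of genes higher in replicate 1 of both lines were added after the data were seen. MT1A, MT3 and MT4, which did not pass, were named after their values were seen. Some genes of the flanking list are not reported here by name. Promoter sequences are those of RefSeq, GRCh38.p14. The YTHDF1 libraries were not used here.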

Additional observations from a re-analysis of the deposited data

How the results depend on the processing

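The members kept to 0 calls in all alternatives but 1. With the second pair of A549 inputs 3 were called (MT2A at a log2 fold change of -6.64, MT1X at -4.95 from 1 and 2 counts in that pair, SLC30A1 at -1.80, where its TPM was in contrast higher in A549/DDP), the sum of 6 metallothioneins was called at -6.43, and MTF1 reversed to 2.14. The size for MT2A depended on the scale, with 216 and 134 TPM in the second pair and 51.2 and 53.8 TPM in A549/DDP. With both pairs MTF1 reversed to 0.11. Leaving out 1 library moved MT2A between -0.98 and -0.25, SLC30A1 between -0.60 and -0.27, the sum between -0.97 and -0.06, MTF1 between -0.25 and 0.02, MT1X between -3.42 and 1.77, MT1F between -7.60 and 3.33 and the MT1 sum between -3.21 and 2.29. The MTF1 reversal came without A549 replicate 2 (0.016), and the MT1 sum was 2.29 without A549 replicate 1, 0.88 without A549/DDP replicate 2 and 0.044 with upper-quartile scaling. MT1F was 3.33 and MT1X 1.77 without A549 replicate 1, and MT1F 0.79 without A549/DDP replicate 2. A lone library left in a line is assumed to vary like the others. These log2 fold changes had wide errors, and the cause of each reversal was not tested.

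Genes called numbered 2437, against 4234 in DESeq2, 4010 with no filter beyond 1 count, 3758 with the second pair, 677 with both pairs, and 1492, 1177 and 0 in limma on log2(TPM + 1), log2(TPM + 0.1) and log2(TPM + 1) without a filter on the mean (4519 with an unadjusted p under 0.05 in the last). Leaving out 1 library gave 2052 to 3809. With the second pair 63.1% of the calls were higher, against 46.1%. Zinc importers called numbered 3, against 0 with both pairs and in limma without the filter, 1 in limma on TPM with either pseudocount, and 1 to 3 with a library left out. Flanking genes called numbered 0, against 1 in DESeq2, with no filter, with at least 10 counts in every library and in limma on log2(TPM + 1) and log2(FPKM + 1), 3 with the second pair, and 0 to 1 with a library left out. Peaks held to 1e-05 left 1 member in A549 replicate 1 and 1 in each list of A549/DDP, and lists of equal length left 1 in A549 replicate 1 and 0 in A549/DDP replicate 1. Either replicate in place of both gave 4 members in each line in place of 2.

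Across 16406 genes the differences between replicates in A549 and in A549/DDP were close to uncorrelated (Pearson r = 0.026). A value over all genes does not speak for single ones such as MT1X and MT1F. The part of a shared replicate number was not tested. With the replicate block 3536 genes were called, and 0 members. The MT1 sum differed 8.29-fold and 16.9-fold between replicates, beyond its counting intervals, and had an SE of 1.80.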

Other observations

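In the second pair of A549 inputs MT2A again had the highest level of the members. It was at 216 and 134 TPM there, with 143 and 102 expected counts. SLC30A1, at 3.53 and 2.70 TPM with 23 and 21 counts, lay below its range in the first pair. MTF1 had 1 and 0 counts, and MT1X 1 and 2 counts, so that neither level could be read at this depth, where 3 counts equal 3.51 and 3.05 CPM. MT1E, MT1G and MT1M were at 0. Scaled to the RNA outside mitochondrial genes, MT2A was at 530 and 313 TPM in this pair, against 79.9 and 61.6 TPM in the first. On the same scale SLC30A1 was at 8.68 and 6.30 TPM, also below the 14.3 and 16.1 TPM of A549/DDP, whereas the edgeR fit with this pair put SLC30A1 lower in A549/DDP, with a log2 fold change of -1.80. The weighted transcript length of MT2A was 777 and 752 bases in this pair and 416 to 476 bases in the other 4 inputs. The part of that length, of the mitochondrial share and of the low depth in these values was not tested.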
